A study of Homo sapiens with 4 samples.

Results

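TUG1, NEAT1, MALAT1, MIAT, H19, KCNQ1OT1 and MEG3 are long noncoding RNAs (lncRNAs) that act or are retained in the nucleus, or that come from imprinted loci. They were chosen by name, and 7 of 7 were found, each on its own row, among the 23284 gene symbols of the deposited expression table. Levels were measured by mRNA sequencing of HEK-293, a transformed human embryonic kidney line, 48 h after transfection with 10 nM siRNA. The 4 libraries were 2 from cells given an siRNA against ZSCAN5A (si4 in 1 library, si5 in the other), 1 from cells given an siRNA against ZSCAN5B (si1), and 1 from cells given a scrambled siRNA, the control. ZSCAN5A and ZSCAN5B are related zinc finger proteins. All libraries came from the same unmodified line, si4 and si5 differ in sequence and were counted as 2 samples of the ZSCAN5A knockdown, and both comparisons share the 1 control library. The study asks which genes depend on each factor. With 1 control library and 1 si1 library, no p-value is given for a difference between groups except that of 1 alternative model, and a difference between libraries has no replicate check.

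Only 3 of the 7 were above the expression limit used here, which marks expression and not abundance, since 12814 symbols reached it in the control. TUG1, NEAT1 and MALAT1 were above 1 FPKM (fragments scaled to transcript length and to library size, so that levels can be compared between genes) in every library, while MIAT, H19, KCNQ1OT1 and MEG3 stayed below 0.13 FPKM in every library.

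Some lncRNAs of this kind, such as NEAT1 and MALAT1, are spliced little or not at all and stay near the chromatin or in nuclear bodies. Others are spliced, and the best matching GENCODE transcripts have 3 exons for TUG1, 4 for MIAT, 4 for H19 and 7 for MEG3. NEAT1 is the scaffold of paraspeckles, bodies that hold the proteins NONO, SFPQ and PSPC1, and MALAT1 collects in nuclear speckles with splicing factors such as SON and SRRM2. Imprinted genes are expressed from the chromosome of 1 parent, and KCNQ1OT1, H19 and MEG3 each come from an imprinted cluster and have been tied to the silencing or regulation of genes in it, in part through Polycomb complexes.

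ZSCAN5A stood at 0.730 FPKM with si4 and 0.713 FPKM with si5, against 2.53 FPKM with si1 and 2.42 FPKM in the control, so that both ZSCAN5A siRNA libraries held about 30% of the control level (30.2% and 29.5%). ZSCAN5B was weak, with 15 fragments in the control, 6 for si4, 17 for si5 and 16 for si1, read from the whole-number steps of the values. It was listed at 0.0903 FPKM in the control, 0.0331 FPKM for si4, 0.0663 FPKM for si5 and 0.0948 FPKM for si1, and the ZSCAN5A siRNA libraries were the low ones. The si1 library was at 105% of the control (exact counting interval 48.6% to 228%), si4 at 36.6% (11.6% to 99.9%) and si5 at 73.4% (34.5% to 158%). The annotated transcript length predicted only 0.567 times the fragments found in the control. Fewer fragments would widen these intervals. At this depth a loss of ZSCAN5B with si1 is not seen, so si1 is called here the library labelled ZSCAN5B knockdown. A loss that leaves 48.6% or more of the control lies within the interval and could not be detected. The study's own measurements of the knockdown by other assays are not used here. Of 9 genes known for HEK-293 cells, 8 were at 1 FPKM or more in every library. Of 10 markers of liver, blood, erythroid, fibroblast or trophoblast cells, 9 stayed under 1 FPKM in every library. The summed level of those 10 ran from 1.51 to 2.82 FPKM, the highest single value being HBA1 at 2.17 FPKM. Taking the depth of the control as 1, depth was 1.09 for si4, 1.54 for si5 and 1.02 for si1.

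The parts of the RNA that the measurement rests on are shown first. The libraries were made from polyadenylated RNA, so the 3′ end of the measured model matters. The ends of the models of the 3 expressed lncRNAs are printed, and a mature RNA can end elsewhere. The hexamers AATAAA and ATTAAA, which direct cleavage and polyadenylation, are in capitals. The build is hg19 (GRCh37) and the strand is plus.
TUG1, chr22:31375302-31375381: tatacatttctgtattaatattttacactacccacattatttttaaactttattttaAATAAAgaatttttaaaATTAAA
NEAT1, chr11:65193924-65194003: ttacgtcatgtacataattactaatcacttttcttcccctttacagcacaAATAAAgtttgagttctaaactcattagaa
MALAT1, chr11:65273860-65273939: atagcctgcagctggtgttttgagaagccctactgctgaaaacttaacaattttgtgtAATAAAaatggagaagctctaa

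At least 1 of these hexamers lay in the last 50 bases of 6 of the 7 models, on the strand of the RNA, against 35.3% of 254413 annotated GENCODE transcripts. KCNQ1OT1 held neither. The match describes letters in this window and says nothing of use of the site.

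Oligo(dT) can also bind runs of A inside an RNA, and MALAT1 is known to end in a structure without a long A tail. The model end printed above need not be that end. Whether the A run of MALAT1 lies inside the mature RNA or at its end was not examined here. The longest run of A is in capitals in these stretches of NEAT1 and MALAT1.
NEAT1, chr11:65191369-65191433: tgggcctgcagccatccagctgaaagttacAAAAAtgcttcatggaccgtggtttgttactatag
MALAT1, chr11:65273539-65273611: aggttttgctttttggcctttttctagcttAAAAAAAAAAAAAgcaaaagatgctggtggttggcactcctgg

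The longest run was 13 A in MALAT1, 358 bases from the end of its model, and 24.3% of annotated transcripts within 20% of its length had a run at least as long. NEAT1 had a run of only 5, and 93.9% of transcripts near its length reached that. TUG1 held 18 A in a row, and 6.98% of transcripts near its length did. The share of each RNA kept by the poly(A) selection was not measured here.

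The designed siRNA targets are given because bases 2 to 8 of a guide strand, the seed, can pair with other transcripts. The sequence on the target that pairs with the seed is in capitals.
ZSCAN5A si4: cgagaagaggtttACGTGTAa
ZSCAN5A si5: aagctagtcatccACAAGAGa
ZSCAN5B si1: acgtgtgcaataaATCATTTa

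These motifs, 7 letters each, were counted on the strand of the RNA. Only the measured models were searched, 3735 bases of the annotated NEAT1 gene of 22767 and 8707 bases of the annotated MALAT1 gene of 10434. None of the 3 was found in the MALAT1 model. The models of TUG1 and NEAT1 each held 1 site of the si1 motif, ATCATTT, and none of the others. Sites in the rest of the long NEAT1 isoform were not looked for. Of genes whose longest transcript has 3 to 12 kb, 8.58% held the si4 motif, 35.0% the si5 motif and 40.9% the si1 motif. KCNQ1OT1, the longest of the 7, held 1 si4 site, 11 si5 sites and 6 si1 sites. Per 10 kb these are 0.17, 1.85 and 1.01 sites, against 0.17, 0.92 and 1.12 over the longest transcript of each gene. MIAT held 1 si5 site.

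The 3 expressed lncRNAs kept their order in every library, TUG1 above NEAT1 above MALAT1. In the control TUG1 was 1.69 times NEAT1 and NEAT1 was 2.57 times MALAT1 on the FPKM scale, and MALAT1 was 71.2 times MIAT. Among 18354 symbols above 0 in the control, whose median was 5.11 FPKM, TUG1 stood at percentile 87.9, NEAT1 at 79.8 and MALAT1 at 59.3. MIAT was at percentile 15.9, H19 at 12.9, KCNQ1OT1 at 9.33 and MEG3 at 4.07. The order of the weak RNAs was not stable, because H19 was above KCNQ1OT1 with si5 and in the control and below it with si4 and si1. Of 48 other genes in the table that were listed here by name as lncRNAs, 5 were above TUG1 in the control, 8 above NEAT1 and 13 above MALAT1. Whether each of the 48 is still typed as noncoding was not checked, so these counts are not ranks among lncRNAs. MALAT1 was thus not among the highest of these listed genes. The share of MALAT1 kept by the poly(A) selection was not measured, so this rank does not give its rank in the cells.

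**Figure D1:**
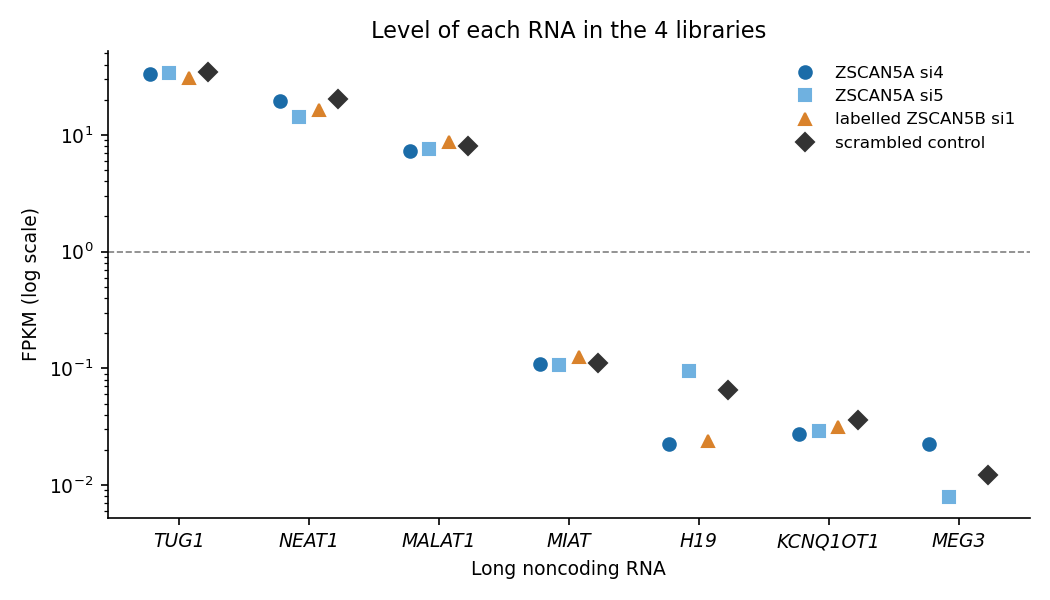
Level of the 7 lncRNAs in FPKM (log scale) in the 4 libraries, 1 point per library, with the 1 FPKM limit dashed. TUG1, NEAT1 and MALAT1 lie above the limit and the other 4 below 0.13 FPKM. MEG3 is listed at 0 with si1 and has no point there.

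NEAT1 differed most from the control of the 3 expressed members with si5 and with si1, but not with si4, where MALAT1 differed more. It stood at 19.6 FPKM with si4, 14.2 FPKM with si5, 16.3 FPKM with si1 and 20.4 FPKM in the control. The control was highest and si4 lay close to it, while si5 and si1 were lower. In bulk samples, fewer cells that express an RNA and less of it per cell cannot be told apart. Relative to the control, NEAT1 was at 0.957 for si4, at 0.694 for si5 and at 0.795 for si1, which are log2 ratios of -0.06, -0.53 and -0.33. The deposited values step in whole fragments, which gave 4225 fragments in the control, 4413 for si4, 4526 for si5 and 3413 for si1. The exact Clopper-Pearson 95% intervals of the ratios, which cover counting error only, were 0.917 to 0.998 for si4, 0.665 to 0.723 for si5 and 0.760 to 0.832 for si1.

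The siRNAs against the same gene did not give the same NEAT1 level. The ratio of si5 to si4 was 0.725 (counting interval 0.695 to 0.756), and 4.98% of 12764 genes differed more between these libraries in either direction. The mean FPKM of si4 and si5 against the control gave a log2 ratio of -0.28, and the SD of the separate si4 and si5 log2 ratios, 0.33 (n = 2), was larger than that. Against the control, 81.3% of 12881 genes changed more than NEAT1 with si4, 4.76% of 12877 genes did so with si5 and 18.4% with si1. Without si4 the ratio was 0.694 and without si5 it was 0.957. No NEAT1 value passed 1.5-fold. The model spans chr11:65190269-65194003, a single exon of 3735 bases with no intron, and holds only the 5′ part of the annotated gene of 22767 bases. The long isoform, which builds the paraspeckle, begins with the same bases, so the isoforms could not be told apart here. The share of the long isoform kept by the poly(A) selection was not measured. The NEAT1 values therefore do not give the level of the isoform that builds the paraspeckle.

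MALAT1, the speckle RNA, stood at 7.28 FPKM with si4, 7.57 FPKM with si5, 8.67 FPKM with si1 and 7.96 FPKM in the control. Both ZSCAN5A siRNA libraries were just below the control and si1 just above it. The ratios were 0.915 with si4 (counting interval 0.875 to 0.956), 0.952 with si5 (0.914 to 0.991) and 1.09 with si1 (1.04 to 1.14). They rest on 3957, 5824, 4386 and 3961 fragments in the same order of libraries. Changes of this size were common, since 63.8% of genes changed more than MALAT1 with si4, 74.4% did so with si5 and 60.6% with si1. MALAT1 lies at chr11:65265233-65273939, 1 exon of 8707 bases, 71.23 kb beyond NEAT1 on the same strand.

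TUG1, a lncRNA with reported links to Polycomb, varied least of the 7. It stood at 33.4 FPKM with si4, 33.6 FPKM with si5, 30.7 FPKM with si1 and 34.5 FPKM in the control. The control was highest, and the highest level was 1.12 times the lowest. The ratio with si1 was 0.889 (counting interval 0.868 to 0.912, with the number of fragments estimated from transcript length), and 48.6% of genes changed more. With si4 and si5 the ratios were 0.967 and 0.972, and 85.9% and 84.7% of genes changed more. TUG1 spans chr22:31365634-31375380. The best matching GENCODE transcript has 3 exons and 7474 bases, and GENCODE now types the gene as protein coding.

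None of the 3 members that reached 1 FPKM passed 1.5-fold in either comparison. The background was 3.80% of 12947 genes for ZSCAN5A (492 genes, 88 higher and 404 lower) and 4.00% of 12877 genes for the library labelled ZSCAN5B knockdown (515 genes, 107 higher and 408 lower). With 3 members and a background this low, a count of 0 says little. In limma on log2(FPKM + 1), fitted to all 4 libraries with 1 residual degree of freedom, the adjusted p for ZSCAN5A was 0.845 for TUG1, 0.577 for NEAT1 and 0.688 for MALAT1. That model called 10 of 13035 genes at an adjusted p under 0.05, and 1605 genes had an unadjusted p under 0.05.

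Transcript length moved with the ratios and is set beside the members. The median log2 ratio to the control ran from 0.15 in genes with transcripts of a median 1127 bases to -0.11 in those with a median of 9148 bases for ZSCAN5A, when genes were sorted into 10 classes of annotated transcript length, with a length at hand for 87.1% of genes. The longest annotated transcript of each member except H19 falls in the longest class. With the median of the class subtracted, the ZSCAN5A log2 ratio of TUG1 turned from -0.05 to 0.07, that of MALAT1 from -0.10 to 0.02 and that of MIAT from -0.05 to 0.07. NEAT1 stayed below 0, from -0.28 to -0.16, as did KCNQ1OT1, from -0.35 to -0.23, and H19, at -0.15 and -0.16. The measured model of NEAT1, at 3735 bases, falls in class 6 and not in class 10, and with that class NEAT1 came to -0.23 for ZSCAN5A and -0.31 for si1. The part of length in these results was not tested.

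**Figure D2:**
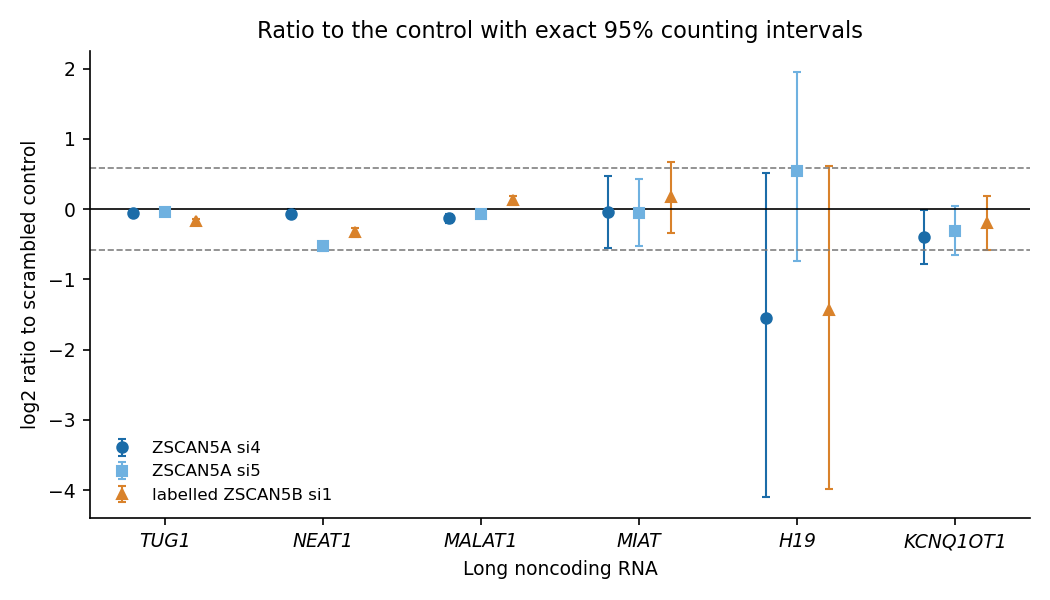
Log2 ratio of each lncRNA to the scrambled control (y axis) for the 3 siRNA libraries, with exact 95% counting intervals, and 1.5-fold dashed. NEAT1 lies at -0.53 with si5 and -0.06 with si4, and the H19 intervals are the widest. MEG3 has too few fragments for a ratio, and the TUG1 intervals use estimated fragments.

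MIAT, a lncRNA first known for a heart disease locus, was weak. It stood at 0.109 FPKM with si4, 0.107 FPKM with si5, 0.125 FPKM with si1 and 0.112 FPKM in the control, from 68, 95, 73 and 64 fragments. The libraries overlapped within counting error, since the ratios of 0.973, 0.961 and 1.12 had intervals of 0.682 to 1.39, 0.693 to 1.34 and 0.791 to 1.60. A change smaller than these intervals was not detectable at this depth. MIAT spans chr22:27053446-27072440.

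KCNQ1OT1 is the antisense RNA of the KCNQ1 imprinted cluster. It stood at 0.0274 FPKM with si4, 0.0291 FPKM with si5, 0.0315 FPKM with si1 and 0.0360 FPKM in the control. The control was the highest of the 4. The values rest on 104, 156, 111 and 125 fragments spread over a model of 59461 bases. The ratio was 0.762 with si4 (0.582 to 0.996), 0.808 with si5 (0.635 to 1.03) and 0.874 with si1 (0.671 to 1.14), so 2 of 3 intervals include no change. KCNQ1OT1, at chr11:2661768-2721228 on the minus strand, lies inside KCNQ1, a potassium channel gene on the other strand. KCNQ1 stood at 0.892 FPKM with si4, 0.952 FPKM with si5, 1.11 FPKM with si1 and 0.922 FPKM in the control. Whether the counting used strand is not given in the sources used here, and without strand KCNQ1OT1 fragments could be unspliced KCNQ1 RNA.

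H19, an imprinted lncRNA of embryonic tissues, had 8 fragments in the control, 3 for si4, 18 for si5 and 3 for si1. The levels were 0.0650 FPKM, 0.0223 FPKM, 0.0947 FPKM and 0.0240 FPKM in that order. The library from si5 was highest, and si4 and si1 were lower than the control. Every counting interval of the ratio to the control included 1, with ratios of 0.343 for si4 (0.0587 to 1.43), 1.46 for si5 (0.603 to 3.87) and 0.369 for si1 (0.0631 to 1.54). The ZSCAN5A siRNAs differed from each other beyond counting error, with si5 at 4.24 times si4 (1.24 to 22.5). H19 lies at chr11:2016406-2019065 on the minus strand.

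MEG3, of the DLK1 imprinted cluster, had 1 fragment in the control, 2 for si4, 1 for si5 and 0 for si1. The table lists it at 0.0123 FPKM in the control, 0.0226 FPKM for si4, 0.00798 FPKM for si5 and 0 for si1. No fold is given, because all 4 libraries were under 3 fragments, and a count of 0 in si1 allows up to 3 fragments, or 0.0364 FPKM. MEG3 lies at chr14:101292445-101327360. Among the 86 table symbols within 200 kb, 83 were listed at 0 in every library, and none reached 1 FPKM in every library. Nearly all of these symbols are microRNAs or small nucleolar RNAs with short loci, and few are longer genes. Whether libraries of polyadenylated RNA hold such short RNAs was not tested, so the count does not show that the cluster is silent. Over all genes, 5031 of 24934 rows were at 0 in every library. DLK1, the protein-coding partner of MEG3 in the cluster, was listed at 0 in the 3 siRNA libraries and at 0.0124 FPKM in the control.

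Next to the lncRNAs stand the proteins and genes that act with them. The lists hold known members and are read against the background of 3.80% and 4.00% above, with no test of the lists. Of 43 paraspeckle proteins, 2 were lower by 1.5-fold in ZSCAN5A and none in the library labelled ZSCAN5B knockdown, and the median log2 ratios were -0.03 and -0.01. The core paraspeckle proteins were close to the control. NONO stood at 188 FPKM with si4, 204 FPKM with si5, 187 FPKM with si1 and 214 FPKM in the control, and PSPC1 at 37.1, 33.8, 31.6 and 32.8 FPKM in that order. SFPQ stood at 112, 96.0, 111 and 102 FPKM. Of the 2 proteins past the limit, HNRNPK rests on a single entry, since it is listed at 0 with si5 and at 343 FPKM with si4, 338 FPKM with si1 and 312 FPKM in the control. An abundant gene listed at 0 can be a failed estimate, and without such genes the 6 list genes past the limit in ZSCAN5A became 5. The other was BCL6, a transcriptional repressor, at 1.43 FPKM with si4, 2.33 FPKM with si5 and 2.84 FPKM in the control.

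Of 50 nuclear speckle proteins, only SRRM2 passed the limit, and it did so with each of the 3 siRNAs. SRRM2, a large scaffold protein of speckles, stood at 24.1 FPKM with si4, 23.5 FPKM with si5, 25.0 FPKM with si1 and 44.6 FPKM in the control. The 3 siRNA libraries lay close together and below the control, and 1.27% of 12793 genes passed the limit in 1 direction with each siRNA. SON stood at 41.2, 39.1, 39.3 and 44.7 FPKM and SRSF1, a splicing factor of the SR family, at 84.5, 73.4, 84.2 and 77.2 FPKM in the same order. The median log2 ratio of the list was 0.01 in both comparisons. No gene of 35 for RNA end processing and decay passed the limit, and the list medians were 0.11 and 0.09 against -0.02 and -0.01 over all genes.

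Of 38 Polycomb and imprinting regulators with a ratio, 3 were lower in ZSCAN5A (CBX7, TET1 and TET3) and 3 in the library labelled ZSCAN5B knockdown (CBX7, PHC3 and TET1), and none was higher. CBX7, a reader of the Polycomb histone mark, passed with each siRNA, at 2.02 FPKM with si4, 1.72 FPKM with si5, 1.83 FPKM with si1 and 3.17 FPKM in the control. TET1, which oxidises methylated cytosine, stood at 2.59, 1.87, 2.15 and 3.53 FPKM in that order, with the control highest. The methyltransferase EZH2 stood at 24.3, 31.4, 24.7 and 29.3 FPKM, SUZ12, its partner, at 38.0, 37.6, 29.1 and 34.6 FPKM, and EED, the third core subunit of Polycomb complex 2, at 11.2, 11.8, 10.7 and 11.1 FPKM. All of the 3 were below the control with si1 and above it with si5, by less than 1.5-fold, and with si4 EZH2 was below it and SUZ12 and EED above. The list medians were -0.08 and -0.17. With the median of the length class subtracted they were -0.04 for ZSCAN5A and -0.17 for si1.

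Of 62 other imprinted genes in the table, 28 reached the expression limit in ZSCAN5A and 29 in the library labelled ZSCAN5B knockdown. None passed 1.5-fold in ZSCAN5A, and 4 were lower with si1, CDKN1C, ZNF264, IGF2R and TP73. With si4 alone ZNF264, IGF2R and TP73 were past the limit too, at log2 ratios of -0.59, -0.76 and -0.60. With si5 they were lower but within it, at -0.34, -0.38 and -0.48. CDKN1C, the cell-cycle inhibitor in the KCNQ1OT1 cluster, stood at 1.89 FPKM with si4, 2.27 FPKM with si5, 1.55 FPKM with si1 and 2.33 FPKM in the control. IGF2R, the receptor that clears IGF2, stood at 11.4, 14.8, 12.4 and 19.3 FPKM in that order, with the control highest. IGF2, the growth factor gene next to H19, stood at 0.360 FPKM with si4, 0.634 FPKM with si5, 0.676 FPKM with si1 and 0.844 FPKM in the control, under the expression limit. PHLDA2, also of the KCNQ1 cluster, stood at 1.60, 1.94, 2.29 and 2.18 FPKM. The list medians were -0.16 and -0.17. With the median of the length class subtracted they were -0.10 for ZSCAN5A and -0.10 for si1. None of the 35 and 36 other genes listed as lncRNAs with a ratio passed the limit, with medians of 0.02 and 0.03.

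**Figure D3:**
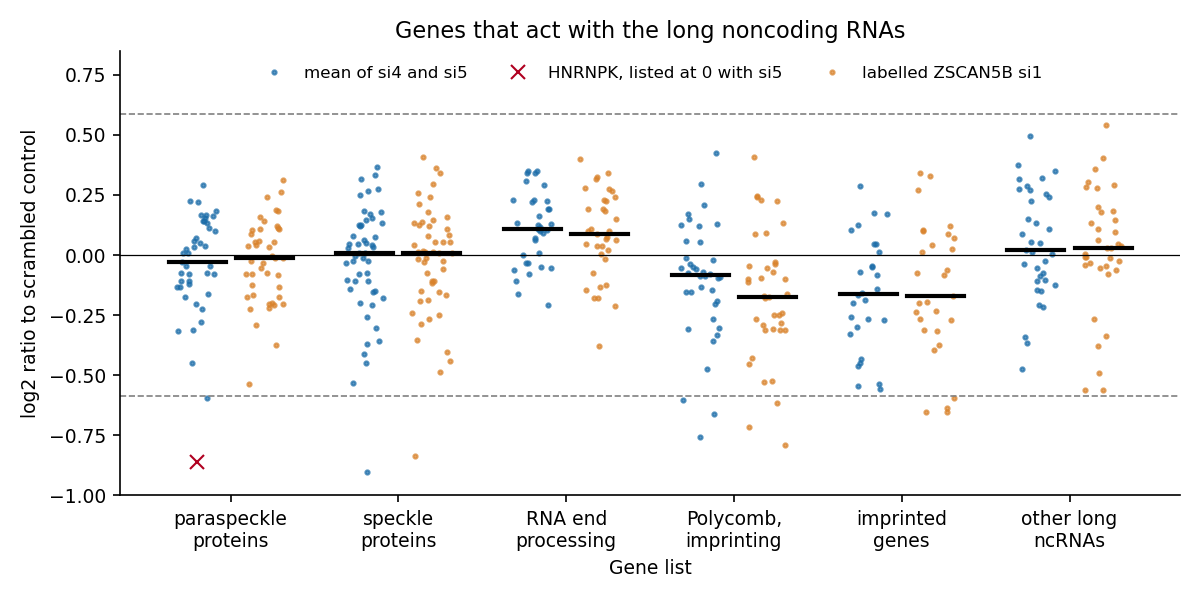
Log2 ratio to the scrambled control (y axis) of every gene at the expression limit in 6 lists (x axis), for the mean of si4 and si5 and for si1, with the list median as a black bar and 1.5-fold dashed. SRRM2 is the lowest speckle gene on both sides, the Polycomb and imprinted lists have medians from -0.08 to -0.17, and HNRNPK is marked because it is listed at 0 with si5.

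The genes around NEAT1 and MALAT1 did not move as a block. Within 200 kb of either, 12 other genes described here were at 1 FPKM or more in every library, of which 5 were lower than the control with all 3 siRNAs, 1 was higher and 6 were mixed (POLA2, CDC42EP2, DPF2, FAM89B, EHBP1L1 and MAP3K11), where 36.6% of all genes were lower with all 3. LTBP3, a carrier of latent TGF-beta, stood at 8.98 FPKM with si4, 10.1 FPKM with si5, 9.44 FPKM with si1 and 13.5 FPKM in the control. FRMD8, the nearest gene before NEAT1 at a distance of 9.27 kb, stood at 3.66, 3.12, 2.82 and 4.01 FPKM in that order. SSSCA1 was the gene higher with all 3 siRNAs, at 24.0, 21.3, 21.8 and 18.1 FPKM. RELA, an NF-kappaB subunit, stood at 12.4, 12.6, 12.4 and 15.1 FPKM. The mixed genes lay close to the control, as POLA2, the DNA polymerase alpha subunit, at 27.5, 24.4, 25.2 and 24.4 FPKM, or apart, as EHBP1L1 at 1.42, 2.04, 1.57 and 1.92 FPKM.

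**Figure D4:**
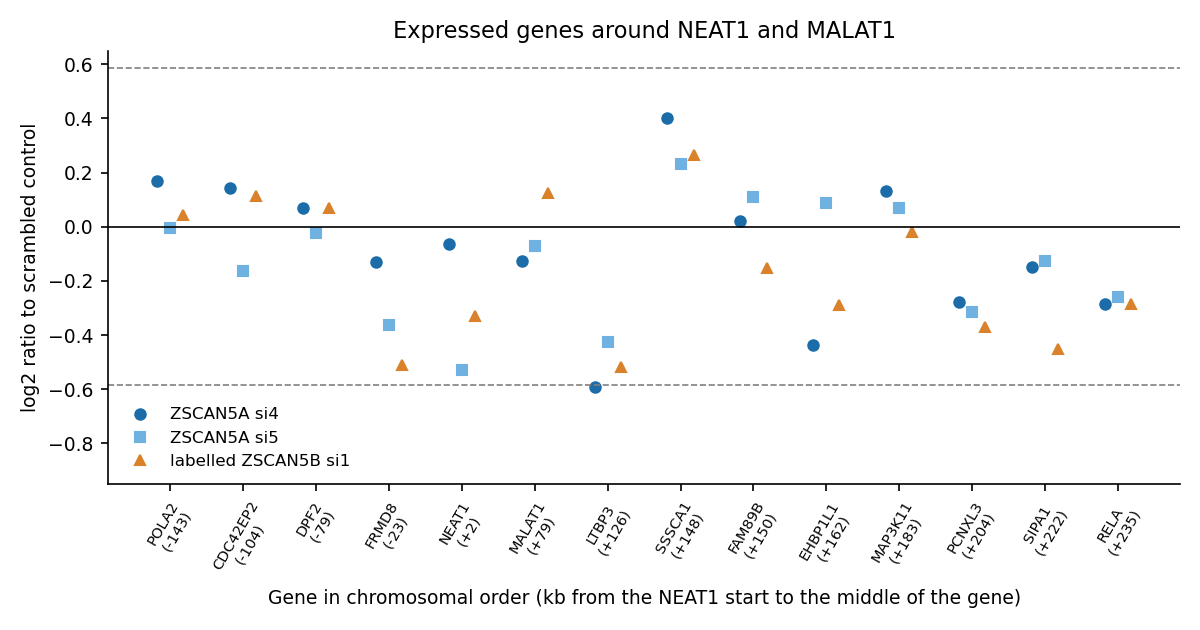
Log2 ratio to the scrambled control (y axis) of genes at 1 FPKM or more around NEAT1 and MALAT1, in chromosomal order, with the distance in kb from the NEAT1 start in brackets, 1 point per siRNA and 1.5-fold dashed. Of the 12 other genes 5 lie below 0 with all 3 siRNAs and 1 above it, LTBP3 being the lowest with si4 at -0.59.

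Near TUG1, MORC2 lies 1.45 kb away and stood at 9.19 FPKM with si4, 10.9 FPKM with si5, 9.81 FPKM with si1 and 11.1 FPKM in the control. Of 6 neighbours of TUG1 at 1 FPKM in every library, SELM alone passed 1.5-fold, and only with si1, at 14.1 FPKM against 9.19 FPKM in the control. SELM encodes a selenoprotein. MIAT had 4 such neighbours and H19 had 1, MRPL23, and none of these passed the limit. KCNQ1OT1 had 2, CDKN1C and SLC22A18, of which CDKN1C passed with si1.

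Other genes followed each expressed lncRNA more closely than most. Among 8641 genes at 5 FPKM or more in every library, likeness was the root mean square difference of the 3 log2 ratios to the control. TMTC2 differed from TUG1 by 0.0093 and ZFP161 by 0.015, where the median gene differed by 0.20. LSM14B differed from NEAT1 by 0.036 and C10orf114 by 0.048, with a median of 0.40. LYPLAL1 differed from MALAT1 by 0.011 and CBR4 by 0.020, with a median of 0.21. With 3 ratios that share 1 control, many genes can lie this close, and nothing follows from it about function or control.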

How the data were processed

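Libraries of polyadenylated RNA from HEK-293 cells were sequenced by the authors. Per the submitters' processing notes, CASAVA 1.8.2, Trimmomatic 0.30, TopHat2 2.1.0 and Cufflinks 2.2.1 were used with build hg19, and the deposited table holds 1 FPKM value for each gene and library. The labels and the study's methods name different stranded mRNA kits. The strand setting and gene models are not given in the sources used here. There were 0 columns of other samples.

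Rows sharing a symbol were summed. A gene was past the limit at a ratio above 1.5 with at least 1 FPKM in a library of the comparison, without a pseudocount. ZSCAN5A was the mean of si4 and si5. Fragments were recovered where the 4 values were whole multiples of a common step within 0.02 fragments. Such proportions were found for 70.0% of 1745 low genes. Depth relative to the control was 1 to 1.54. Loci and sequences came from GRCh37 and GENCODE, and siRNA targets from the study's list of oligonucleotides. Python 3.11.15, pandas 2.3.3, SciPy 1.17.1, R 4.3.3 and limma 3.58.1 were used, and the steps were tested on simulated data. The lncRNAs and lists were chosen with earlier results of these data known. Named genes were all members, core genes of the lists, list genes past the limit with each siRNA, neighbours within 200 kb at 1 FPKM in every library, and the 2 genes most like each expressed member. Of the neighbours, 1 is not reported here. TET3, PHC3, BCL6, HNRNPK, ZNF264, IGF2R, TP73 and TET1, which passed the limit with fewer than 3 siRNAs, were named after their values were seen, as were HBA1 and the motif counts. Scaling, pseudocount, limits, length, leaving out si4 or si5, and limma were tried as alternatives.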

Additional observations from a re-analysis of the deposited data

Results flagged for a closer look

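MALAT1 and MIAT were picked out because both ZSCAN5A siRNA libraries lay on 1 side of the control and the library labelled ZSCAN5B knockdown on the other. For MALAT1 the log2 ratio was -0.10 for the mean of si4 and si5 and 0.12 for si1. For MIAT it was -0.048 and 0.17. The difference between the siRNA groups was not tested, and both ratios use the same control library. The counting interval of MALAT1 with si1 was 1.04 to 1.14 as a ratio, and every MIAT interval included no change.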

How the results depend on the processing

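No paired analysis was possible because the labels give no pairing of libraries between the groups. Of 163 alternative values for the main results 119 kept within the limits set for them and 44 moved, and 30 of 108 list medians moved. With the median of the length class subtracted, the ZSCAN5A log2 ratios became 0.070 for TUG1, 0.016 for MALAT1, 0.067 for MIAT and -0.23 for KCNQ1OT1, and those for si1 became -0.053 for TUG1, -0.22 for NEAT1 and 0.24 for MALAT1. Taking the length of the measured model, chosen after seeing the data, altered only NEAT1, to -0.23 and -0.31. The ZSCAN5A median over the expressed members, -0.10, became 0.010 under that subtraction, -0.088 under a pseudocount of 1 FPKM, -0.085 under median-ratio scaling, -0.063 under upper-quartile scaling and -0.071 to -0.064 when si4 or si5 was left out. The si1 median, -0.17, became -0.053 with length, -0.16 under either scaling and -0.18 without an expression limit. Under a pseudocount of 0.1 or 1 FPKM, KCNQ1OT1 came to -0.085 or -0.011 and MIAT to -0.025 or -0.0048 in ZSCAN5A. Median-ratio and upper-quartile scaling gave -0.035 and -0.013 for MIAT and -0.031 and -0.0091 for TUG1. Without an expression limit 1 member, H19, passed 1.5-fold with si1 instead of 0. List genes past the limit in ZSCAN5A, 6, became 2 with a pseudocount of 1 FPKM or an expression limit of 5 FPKM, 3 with length, 17 without a limit, 20 at 1.3-fold, 0 at 2-fold and 4 to 10 when si4 or si5 was left out. The 8 of si1 became 2, 2, 22, 25 and 0 for the same settings apart from length. Leaving out the genes listed at 0, chosen after seeing the data, gave 5 in ZSCAN5A. The cause was not tested, and depth limits the weak members.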
